A study of Homo sapiens with 8 samples.

Results

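The tripartite motif (TRIM) genes encode a family of proteins built on a RING finger, 1 or more B-box zinc fingers and a coiled coil. They were taken here as the genes whose platform symbol is TRIM followed by digits and whose brightest single-gene probe set reached a log2 intensity of at least 6 on its highest array. The rule found 38 TRIM genes among the 11529 genes at that level. A further 21 of the 59 TRIM symbols with a single-gene probe set lay below it. TRIM50 and TRIM66 were the members nearest to the limit, with highest values of 6.31 and 6.40. TRIM9, at 5.96, and TRIM72, at 5.59, were the nearest outside it, where the brightest probe set is the one with the highest mean over the arrays. Another probe set of each gene reached the limit on a single WT array, at 6.01 for TRIM9 and 6.08 for TRIM72, and is described with the clone baselines. TRIM66 reached the limit in both mutant clones and in WT with TNF-alpha but not in unstimulated WT cells, so its inclusion rests on those arrays.

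The arrays measured RNA of KBM7, a near-haploid human chronic myeloid leukaemia cell line in which a gene-trap insertion can disable the only copy of a gene. The IFN-gamma experiment set wild-type (WT) cells beside a JAK2 mutant, each with no cytokine and after 6 hours with IFN-gamma (100 ng/ml). The TNF-alpha experiment did the same with WT cells and a TNFRSF1A mutant and 6 hours of TNF-alpha (10 ng/ml). Unstimulated WT cells had 2 arrays, of which WT replicate 1 was the control of the first experiment and WT replicate 2 that of the second. The other 6 conditions had 1 array each. The mutants carry their trap in JAK2, a kinase of the IFN-gamma receptor, or in TNFRSF1A, the gene of the TNF receptor TNFR1, and both derive from the same line as the controls. Each trapped gene is represented by 1 mutant, with 1 array per condition, so the loss of the gene and any other difference of those cells cannot be told apart.

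Many TRIM proteins are ubiquitin ligases, because the RING finger recruits ubiquitin-conjugating (E2) enzymes, while the C-terminal domain chooses the target. Interferons raise the genes of several members, among them the cytosolic antibody receptor TRIM21, the capsid-binding factor TRIM5 and TRIM25, a partner of the RNA sensor RIG-I. IFN-gamma signals through the kinases JAK1 and JAK2 to genes with gamma-activated sequences (GAS), and it induces IRF1, which binds interferon-stimulated response elements (ISRE). TNF-alpha acts through TNFR1 mainly on NF-kappaB and MAP kinases.

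Values are log2 intensities, a comparison is the log2 difference between 2 arrays, and a gene was called raised or lowered from 2-fold upward, a log2 difference of 1. The precision is limited by the number of arrays, and no p-value accompanies these differences. The WT arrays differed from each other by an SD of 0.38 over the 11529 genes, which is used as the spread of a difference. Nothing in the labels says whether they came from separate cultures. They belong to different experiments, so this spread may also hold differences between the experiments. Over all genes the SD was smaller for the cytokine differences within an experiment. It was 0.22 and 0.15 with IFN-gamma in WT and the JAK2 mutant, and 0.20 and 0.12 with TNF-alpha in WT and the TNFRSF1A mutant. A probe set's level depends on its probes, so levels are compared between arrays and never between genes. The targeted genes were read first. The JAK2 probe set stood at 5.08 and 5.32 on the arrays of the JAK2 mutant against 6.28 in WT replicate 1, and the TNFRSF1A probe set at 6.56 and 6.55 in its mutant against 9.36 in WT replicate 2. The upper quartile of the arrays' background probe sets, between 5.76 and 6.04, marks the background range, and 35 of the 38 TRIM genes lay above it on every array. The JAK2 probe set lay in this range on both JAK2 mutant arrays and near its limit of 5.97 in WT replicate 1. The size of the JAK2 difference is therefore uncertain. Of 7 progenitor and myeloid markers measured, KIT, CD34, GATA2, LYL1 and CEBPA lay above the background range on all arrays, SPI1 lay in it on all 8 and MPO on 1. Of the markers of other lineages, CD3E, CD2, LCK, MS4A1, KLF1, EPCAM and CDH1 lay in it on all arrays, while HBB, CD79A, CD3D (8.71 to 10.03), PAX5 (9.25 to 9.57) and KRT18 (10.37 to 10.88) read above it on all.

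The promoters of 28 of the 38 members were found in the RefSeq promoter table of build GRCh38.p14, which runs from 250 bases before to 50 bases after a gene's start. The ISRE core (GAAA, any 2 bases, GAAA), searched on both strands, was present in 6 of the 28, which is 21.4%, against 3.65% of all 27305 promoters in the table and 2.75% of those of the genes compared. These 6 stretches are shown because they include interferon-inducible members, and the capitals mark the matched letters on the strand that reads GAAA.
TRIM14: gctcccaaggGAAACCGAAAcctcggccgt
TRIM5: ctcagggcagGAAAGTGAAAgataaactat
TRIM44: tcctgacgggGAAAGGGAAAgtggaaccgg
TRIM21: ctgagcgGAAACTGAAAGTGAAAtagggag
TRIM26: gggcagcGAAATGGAAACTGAAAtcaggcg
TRIM2: aataaatagaGAAAAGGAAAtaagccgaag

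The TRIM14 stretch is chr9:98119229-98119258 on the plus strand, with its match at positions -26 to -17 from the start of this minus-strand gene. That of TRIM5 is chr11:5685082-5685111, plus strand, with the match at -27 to -18. The TRIM44 stretch is chr11:35662730-35662759, plus strand, with the match at -35 to -26. In TRIM21, at chr11:4393663-4393692 on the minus strand, 2 overlapping matches lie 18 to 33 bases into the transcribed part of the gene. In TRIM26, at chr6:30213578-30213607 on the plus strand, 2 overlapping matches lie farther upstream, at -194 to -179. The TRIM2 stretch, chr4:153151936-153151965 on the plus strand, holds its match at -217 to -208. The GAS letters TTCNNNGAA occurred in 3 of the 28 promoters, those of TRIM2, TRIM3 and TRIM15, or 10.7% against 7.88% of all promoters. The NF-kappaB form (GGGA, any 2 bases, TTCC) occurred in 0 of the 28 and in 1.63% of all. A match describes letters only, and binding was not measured. TRIM11, TRIM13, TRIM22, TRIM24, TRIM27, TRIM28, TRIM35, TRIM4, TRIM45 and TRIM8 were not among the 28.

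The first comparison asks which TRIM genes answer IFN-gamma in WT cells. None of the 38 reached 2-fold in either direction, against 0.607% of all genes raised and 0% lowered. At 1.5-fold, a log2 difference of 0.58, 5 of the 38 (13.2%) stood higher against 1.38% of all genes, and 0 stood lower against 0.139%. The 5 were TRIM56, TRIM22, TRIM14, TRIM38 and TRIM21, all of them on the list of TRIM genes known to be interferon-inducible. In these bulk cultures a larger share of responding cells and more RNA per cell cannot be told apart.

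TRIM56, a ligase gene of antiviral RNA and DNA sensing pathways, had the largest difference against WT replicate 1, while against WT replicate 2 TRIM14 had the largest. TRIM56 read 9.49 in WT with IFN-gamma, 8.56 in WT replicate 1 and 8.54 in WT replicate 2. The JAK2 mutant read 8.64 without and 8.63 with IFN-gamma, WT with TNF-alpha read 8.61, and the TNFRSF1A mutant read 8.67 without and 8.61 with TNF-alpha. The WT array with IFN-gamma stood 0.82 above the highest of the other 7, which lay within 8.54 to 8.67. The difference was 0.93, or 1.91-fold, against WT replicate 1 and 0.95 against WT replicate 2. Its SD over the WT pair was 0.02 (n = 2), and in the JAK2 mutant the difference was -0.01.

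TRIM22, whose product restricts several viruses, read 11.08 in WT with IFN-gamma against 10.24 and 10.54 in the WT replicates. It read 9.99 and 10.02 in the JAK2 mutant without and with IFN-gamma, 10.57 in WT with TNF-alpha, and 10.63 and 10.66 in the TNFRSF1A mutant without and with TNF-alpha. No other array overlapped the value with IFN-gamma in WT, but all 4 arrays of the TNF-alpha experiment lay above the 3 other arrays of the IFN-gamma experiment. The IFN-gamma difference was therefore 0.84 against WT replicate 1 and 0.54 against WT replicate 2, and it was 0.03 in the JAK2 mutant. All 6 TRIM22 probe sets were above 0 in WT against WT replicate 1, from 0.44 to 0.94, and 5 of the 6 were past 1.5-fold. Against WT replicate 2 they ranged from -0.12 to 0.54, with 1 below 0 and 0 past 1.5-fold, so the size for TRIM22 depends on the control array. In the JAK2 mutant the 6 probe sets ranged from -0.12 to 0.29.

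TRIM14 lacks a RING finger and is an adaptor of the mitochondrial antiviral protein MAVS. It read 9.31 in WT with IFN-gamma, 8.59 in WT replicate 1, 8.75 and 8.90 in the JAK2 mutant without and with IFN-gamma, and 8.12 in WT replicate 2. WT with TNF-alpha read 8.04, and the TNFRSF1A mutant read 8.13 without and 8.02 with TNF-alpha. Here the 3 other arrays of the IFN-gamma experiment lay above all 4 of the TNF-alpha experiment. The difference was 0.72 against WT replicate 1 and 1.18, past 2-fold, against WT replicate 2. It rests on a probe set marked for cross-hybridisation, and the next brightest TRIM14 probe set gave 0.26.

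TRIM38, a ligase gene that regulates Toll-like receptor and RNA sensor signalling, read 9.07 in WT with IFN-gamma and 8.42 and 8.47 in the WT replicates. The JAK2 mutant read 8.32 and 8.41 without and with IFN-gamma, WT with TNF-alpha 8.43, and the TNFRSF1A mutant 8.51 and 8.49. The WT array with IFN-gamma stood 0.55 above all others. The difference was 0.65 against WT replicate 1 and 0.59 against WT replicate 2. It rests on a probe set marked for cross-hybridisation, and the second, unmarked TRIM38 probe set gave 0.54, short of 1.5-fold.

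TRIM21 is read by a single probe set. It stood at 8.0 in WT with IFN-gamma, at 7.40 and 7.15 in the WT replicates, and at 7.18 and 7.39 in the JAK2 mutant without and with IFN-gamma. WT with TNF-alpha stood at 7.20 and the TNFRSF1A mutant at 7.31 and 7.19. No array overlapped the WT value with IFN-gamma, which was 0.59 above the next. The difference was 0.59 against WT replicate 1, just past 1.5-fold, and 0.85 against WT replicate 2.

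**Figure D1:**
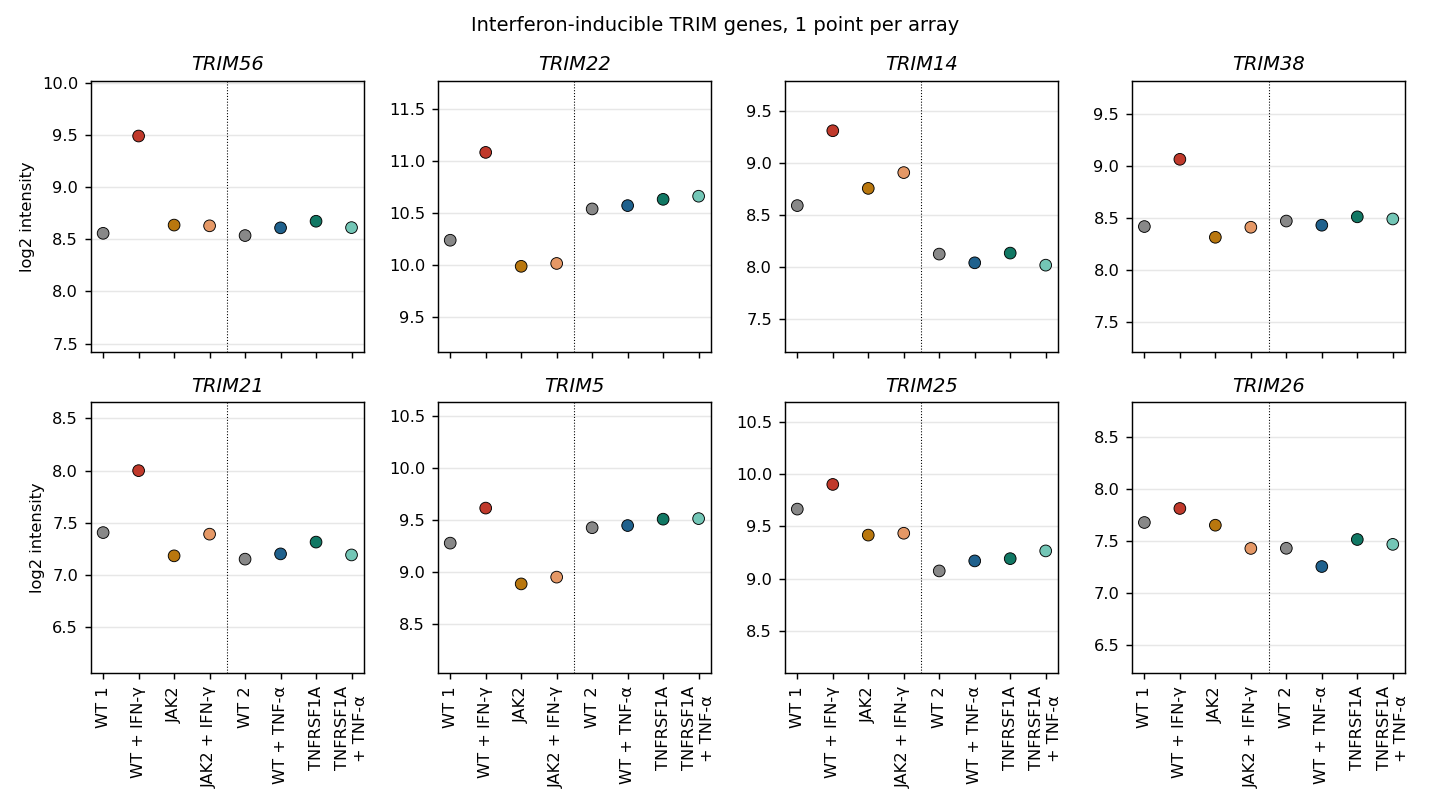
Log2 intensity of the 8 interferon-inducible TRIM genes at the level, 1 point per array, with the IFN-gamma experiment left and the TNF-alpha experiment right of the dotted line and every panel spanning the same height. In all 8 panels WT with IFN-gamma is the highest of the 8 arrays, by 0.82 for TRIM56 and by 0.10 for TRIM5.

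The interferon-inducible list held 10 genes (TRIM5, TRIM14, TRIM21, TRIM22, TRIM25, TRIM26, TRIM34, TRIM38, TRIM56 and TRIM69). TRIM34 and TRIM69 lay below the level, with highest values of 4.02 and 4.56. The 8 others were all above 0 with IFN-gamma in WT, with a median of 0.62, 0 past 2-fold and 5 past 1.5-fold. Over all genes the median was -0.02. The 30 members outside the list had a median of -0.10, and 10 of them were above 0. Against WT replicate 2 the median of these 30 was 0.04, so its sign turned with the control, and that of the 8 listed genes was 0.71. In the JAK2 mutant the 8 genes had a median of 0.05 and a range of -0.22 to 0.21. The list was written with earlier results of these data known, so its direction is no independent evidence.

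The other 3 genes of the list differed less. TRIM25 read 9.90 in WT with IFN-gamma, 9.67 in WT replicate 1 and 9.07 in WT replicate 2. Its difference was thus 0.24 against the one and 0.83 against the other, and the WT arrays themselves differed by -0.59, the value of replicate 2 minus replicate 1. TRIM25 read 9.42 and 9.43 in the JAK2 mutant, 9.17 in WT with TNF-alpha and 9.19 and 9.27 in the TNFRSF1A mutant. A second, dimmer TRIM25 probe set gave -0.06 with IFN-gamma.

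TRIM5 read 9.62 in WT with IFN-gamma, 9.28 and 9.43 in the WT replicates, 8.89 and 8.95 in the JAK2 mutant, 9.45 in WT with TNF-alpha and 9.51 in both TNFRSF1A mutant arrays. The difference with IFN-gamma was 0.34, or 0.19 against WT replicate 2, and neither exceeds the WT pair's spread of 0.38. That spread crosses the experiments, and the SD over all genes with IFN-gamma in WT was 0.22. The TRIM5 difference rests on a probe set marked for cross-hybridisation. The other TRIM5 probe set at the level gave 0.39, while an unmarked one below the level gave 0.08. TRIM26, a ligase gene of the major histocompatibility complex region, had 0.13 and 0.38 against the WT replicates, and its 4 probe sets ranged from 0.13 to 0.22.

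WT with IFN-gamma was the highest of the 8 arrays for 14 of the 38 members (36.8%), against 7.97% of all genes. Beside the 8 genes of the list these were TRIM33, TRIM37, TRIM44, TRIM58, TRIM63 and TRIM68, which stood above the next array by 0.01 to 0.26. It was the lowest array for 7 members (18.4%), against 10.8% of all genes. Against WT replicate 2 instead, 1 member passed 2-fold, TRIM14, beside 1.66% of all genes raised and 0.694% lowered. At 1.5-fold against that array 7 members stood higher (18.4% against 7.02% of all genes), now with TRIM25, TRIM58 and TRIM6 and without TRIM22. There 1 stood lower, TRIM52, against 3.93%. Against both WT arrays, 4 members were past 1.5-fold (TRIM14, TRIM21, TRIM38 and TRIM56), or 10.5% against 1.03% of all genes. Of these, TRIM14 and TRIM38 rest on probe sets marked for cross-hybridisation.

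**Figure D2:**
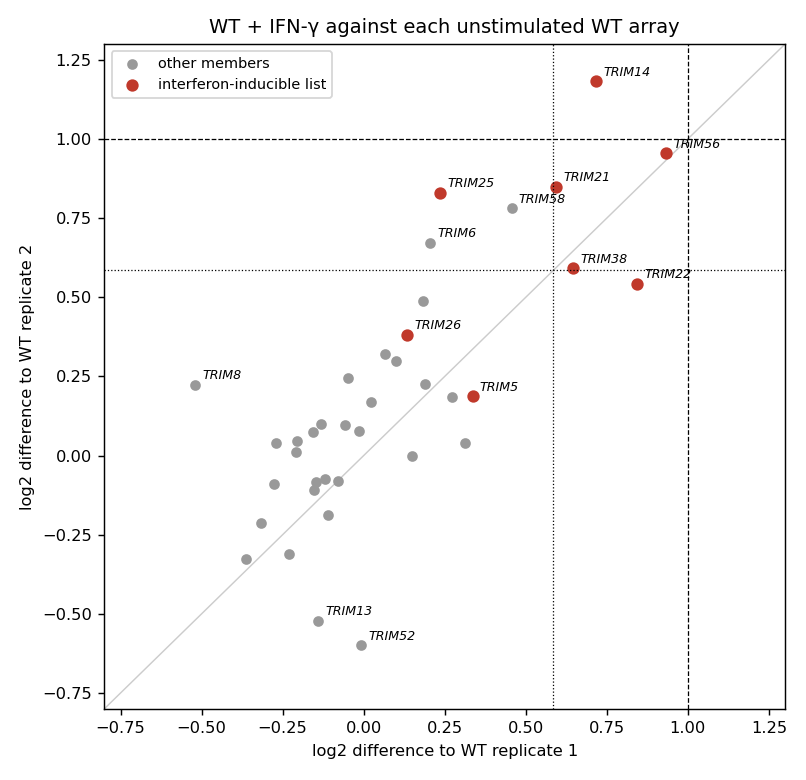
Log2 difference of WT with IFN-gamma to WT replicate 1 (x axis) and to WT replicate 2 (y axis), 1 point per TRIM gene, with interferon-inducible genes in red, dotted lines at 1.5-fold and dashed lines at 2-fold. TRIM56 lies near the diagonal at 0.93 and 0.95, while TRIM25, at 0.24 and 0.83, and TRIM8, at -0.52 and 0.22, depend on the control array.

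Outside the list, TRIM58, which encodes a ligase of maturing red cells, had 0.46 against WT replicate 1 and 0.78 against WT replicate 2. It read 7.50 in WT with IFN-gamma and at most 7.24 elsewhere. Its second probe set gave 0.36, but there both JAK2 mutant arrays (7.53 and 7.56) lay above WT with IFN-gamma (7.47). TRIM36, a microtubule-associated member, had 0.31 in WT and also 0.31 in the JAK2 mutant, so its value did not separate the genotypes. Against WT replicate 2 it had 0.04. Its other probe sets gave -0.07 to 0.19 in WT against WT replicate 1 and -0.08 to 0.42 in the JAK2 mutant.

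The lowest value belonged to TRIM8, a regulator of SOCS1 and of NF-kappaB signalling. TRIM8 read 8.22 in WT with IFN-gamma against 8.73 in WT replicate 1 but 7.99 in WT replicate 2, so its difference was -0.52 against the first and 0.22 against the second. TRIM71, the developmental RNA-binding ligase, had -0.36 and -0.33, TRIM47 -0.32 and -0.21, and TRIM15 -0.28 and -0.09. For TRIM71 a second probe set gave -0.04.

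The members were then grouped by C-terminal domain. Of 20 members with a PRY-SPRY domain, the target-binding domain of the antiviral TRIM proteins, 4 were past 1.5-fold with IFN-gamma, against 1.38% of all genes, and the median was 0.14. The 4 were TRIM14, TRIM21, TRIM22 and TRIM38, all on the interferon-inducible list, so their number is no separate evidence about the domain. Of all 38 members 13.2% were past 1.5-fold. TRIM56 has no PRY-SPRY domain, and the median of its group of 4 was 0.09. The 4 PHD-bromodomain genes, which encode the transcriptional co-regulators TRIM24, TRIM28 and TRIM33 and the related TRIM66, ranged from -0.11 to 0.27. The 4 NHL genes TRIM2, TRIM3, TRIM32 and TRIM71 ranged from -0.36 to -0.01, and the 3 COS genes TRIM36, TRIM46 and TRIM63 from -0.12 to 0.31. TRIM13, anchored in the endoplasmic reticulum, had -0.14, TRIM37, a regulator of centriole number, 0.07 and the filamin-domain gene TRIM45 -0.23.

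TRIM5, TRIM6, TRIM34 and TRIM22 are neighbours on chromosome 11, separated only by a readthrough gene in the RefSeq table of GRCh38.p14. With IFN-gamma, TRIM22 had 0.84, TRIM5 0.34 and TRIM6 0.20. TRIM6 had 0.67 against WT replicate 2, and its second probe set gave 0.02. A probe set shared by TRIM34 and the readthrough gene TRIM6-TRIM34 had 0.43. The other members on this chromosome had 0.59 (TRIM21), 0.27 (TRIM66), 0.19 (TRIM68), 0.18 (TRIM44) and -0.08 (TRIM3). Of the members with the ISRE core shown above, TRIM14, TRIM21, TRIM5, TRIM44, TRIM26 and TRIM2 had 0.72, 0.59, 0.34, 0.18, 0.13 and -0.01. TRIM56 and TRIM38, at 0.93 and 0.65, were among the 28 promoters without a match.

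**Figure D3:**
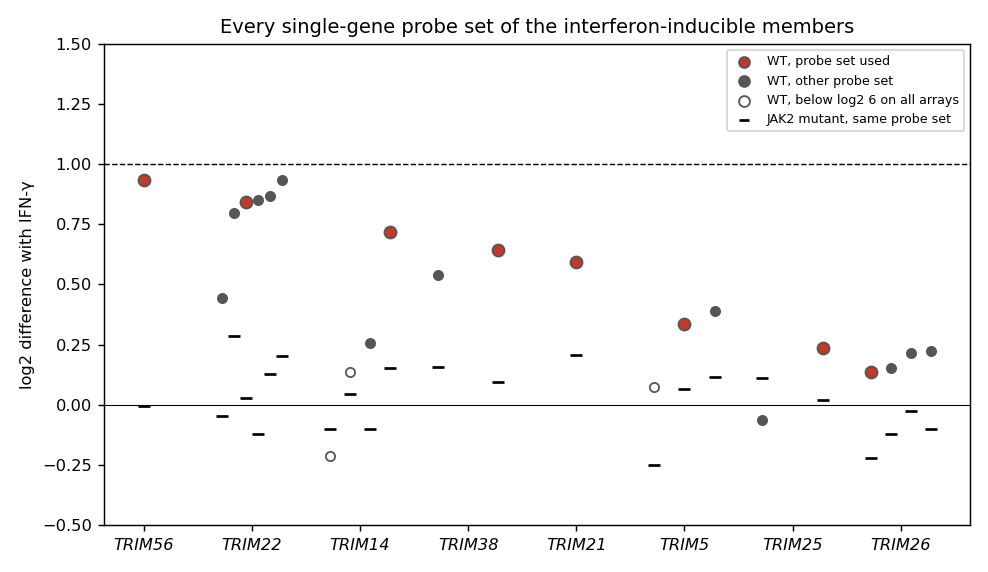
Log2 difference with IFN-gamma for each single-gene probe set of the 8 interferon-inducible members, as circles for WT cells (red where the probe set stands for the gene, grey for others, white where it lay below log2 6 on all arrays) and dashes for the JAK2 mutant. The control is WT replicate 1, against which all 6 TRIM22 probe sets lie between 0.44 and 0.94 and those of TRIM14 between -0.22 and 0.72; against WT replicate 2, not drawn, those of TRIM22 lie between -0.12 and 0.54.

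In JAK2 mutant cells, which question whether these values need the kinase, 0 of the 38 members reached 1.5-fold with IFN-gamma in either direction, against 0.165% of all genes raised and 0.217% lowered at that size. The 5 genes past 1.5-fold in WT had values of -0.01 (TRIM56), 0.03 (TRIM22), 0.15 (TRIM14), 0.10 (TRIM38) and 0.21 (TRIM21). The WT difference exceeded that of the mutant by 0.94, 0.82, 0.57, 0.55 and 0.39 in the same order. These gaps were not tested, because each of the 4 values behind them is a single array. The TRIM22 gap is that of its brightest probe set, and over all TRIM22 probe sets the mutant value ranged from -0.12 to 0.29. The highest values in the mutant were 0.31 for TRIM36, 0.27 for TRIM63 and 0.21 for TRIM21, and the lowest were -0.32 for TRIM46, -0.30 for TRIM45 and -0.27 for TRIM50. All of these lie within the spread of the WT pair, which crosses the experiments. In the mutant the SD over all genes was 0.15. The SD over the 38 members was 0.14 in the mutant and 0.34 in WT. The actin 3'/5' signal ratio, which rises with degraded RNA, was 4.41 in WT replicate 1 and 4.81 in WT with IFN-gamma. In the JAK2 mutant the ratio was 5.74 without and 6.47 with IFN-gamma, the latter the highest of all arrays. Its part in the lower mutant values was not tested.

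**Figure D4:**
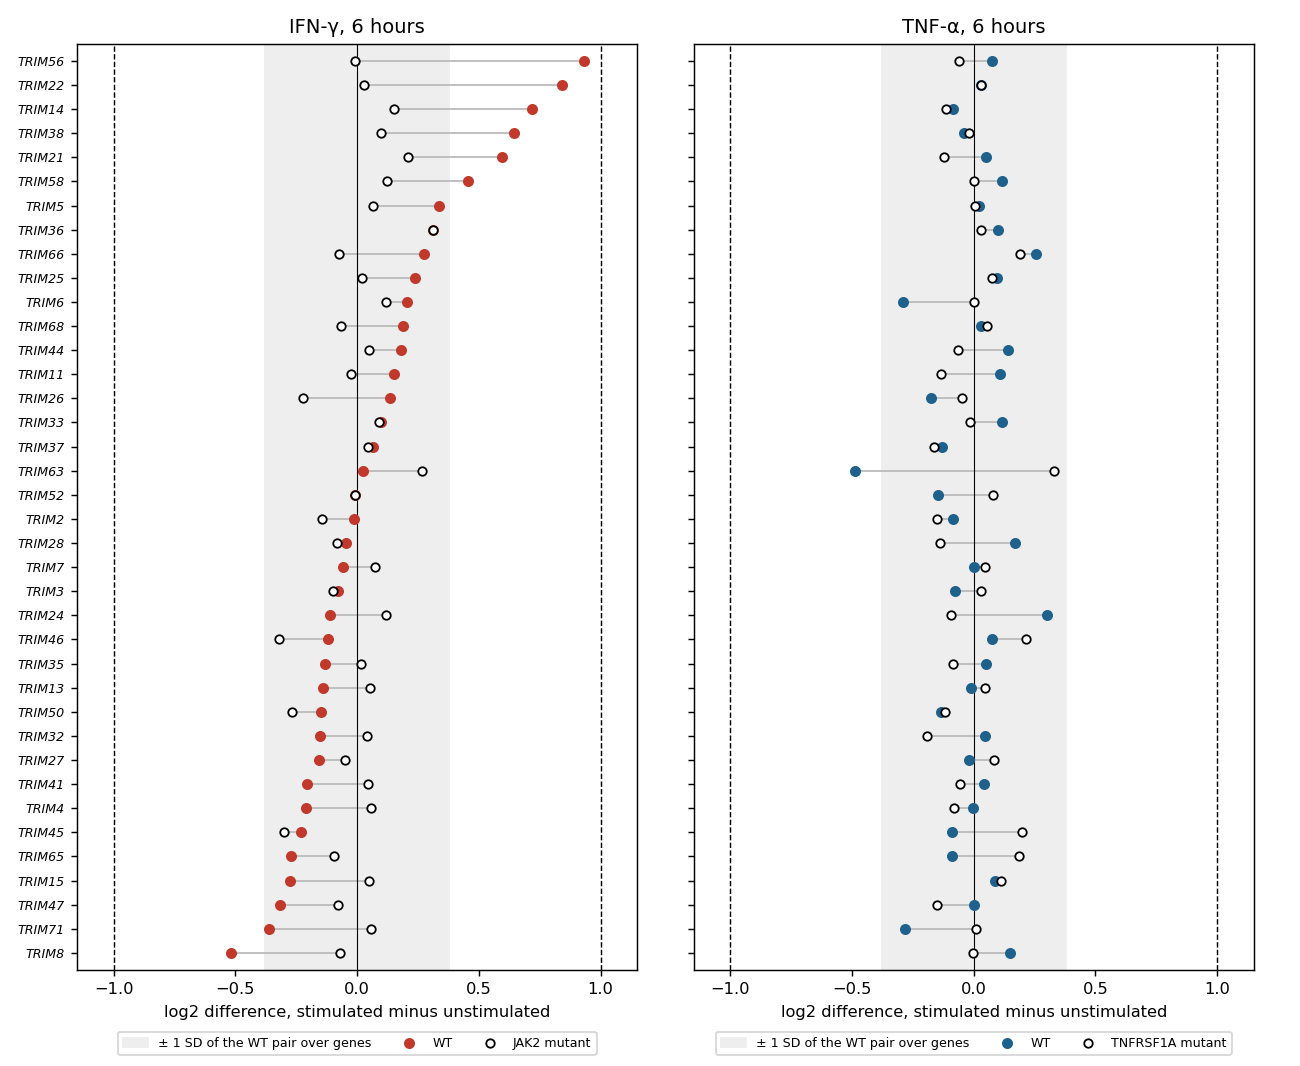
Log2 difference between stimulated and unstimulated cells for the 38 TRIM genes, ordered by the IFN-gamma value in WT, with filled circles for WT and open circles for the mutant, IFN-gamma on the left and TNF-alpha on the right. The grey band is 1 SD of the WT pair over genes, 0.38, to either side of 0 and the dashed lines mark 2-fold; with TNF-alpha only TRIM63 in WT, at -0.49, lies outside the band.

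TNF-alpha moved no TRIM gene in WT cells by 2-fold (0.312% of all genes were raised and 0.00867% lowered) or by 1.5-fold (1.09% and 0.0781%). The median was 0.02 and 33 of the 38 lay within 0.25 of 0. The interferon-inducible genes ranged from -0.17 for TRIM26 to 0.10 for TRIM25. TRIM56 had 0.07, TRIM22 0.03, TRIM14 -0.08, TRIM38 -0.04 and TRIM21 0.05.

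The highest value with TNF-alpha was 0.30, for the nuclear receptor co-regulator TRIM24. TRIM24 read 10.44 in WT with TNF-alpha and 10.13 in its control, but also 10.39 and 10.29 in the TNFRSF1A mutant without and with TNF-alpha. In WT replicate 1, WT with IFN-gamma and the JAK2 mutant it read 10.06, 9.95, 9.76 and 9.87. Its 2 other probe sets gave 0.28 and 0.25. TRIM66 followed at 0.26, then TRIM28, a co-repressor that silences retroelements, at 0.17, TRIM8 at 0.15, TRIM44 at 0.14, and TRIM33, TRIM58 and TRIM11 at 0.11 each.

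The lowest value was -0.49, for TRIM63, a ligase gene known from muscle atrophy. TRIM63 read 6.67 in WT with TNF-alpha and 7.16 in its control, and 6.77 and 7.09 in the TNFRSF1A mutant without and with TNF-alpha. It read 7.31, 7.33, 6.85 and 7.11 in WT replicate 1, WT with IFN-gamma and the JAK2 mutant without and with IFN-gamma. The unstimulated TNFRSF1A mutant and WT with TNF-alpha thus had the lowest readings, and the 4 other TRIM63 probe sets lay below the level. TRIM6 had -0.29, TRIM71 -0.28 and TRIM26 -0.17. Against WT replicate 1, 0 members passed 2-fold (1.4% of all genes were raised and 0.711% lowered). At 1.5-fold against that array 0 stood higher (5.26% of all genes) and 3 stood lower (7.89% against 5.36%), TRIM6 at -0.76, TRIM63 at -0.63 and TRIM8 at -0.60. The median of the members there was -0.14.

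In TNFRSF1A mutant cells given TNF-alpha, 0 of the 38 members reached 1.5-fold, against 0.0347% of all genes raised and 0.00867% lowered. The highest values were 0.33 for TRIM63, 0.22 for TRIM46 and 0.20 for TRIM45, and the lowest -0.19 for TRIM32, -0.16 for TRIM37 and -0.15 for TRIM47. TRIM24 had -0.09 there. The SD over members was 0.12, the smallest of the 7 comparisons, and 0.15 in WT. Both are smaller than the SD of 0.26 over the members between the WT arrays. The actin 3'/5' signal ratio, which rises with degraded RNA, was 3.27 in WT replicate 2 and 4.81 in WT with TNF-alpha, and 4.51 and 5.53 in the TNFRSF1A mutant without and with it. Its part in the values of this experiment was not tested.

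The clone baselines were compared next. In unstimulated JAK2 mutant cells 0 members passed 2-fold against WT replicate 1, where 0.226% of all genes were raised and 1.91% lowered. At 1.5-fold, 1 member (2.63%) was higher, TRIM66, against 1.86% of all genes, and 1 was lower, TRIM2, against 4.29%. Neither share of the members is far from that of all genes.

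TRIM2 encodes an NHL-domain ligase known from neurons. It read 6.39 and 6.30 in the WT replicates, 6.37 in WT cells given IFN-gamma and 6.21 in WT cells after TNF-alpha. It read 5.45 and 5.30 in the JAK2 mutant without and with IFN-gamma, which lies in the background range, and 6.96 and 6.81 in the TNFRSF1A mutant without and with TNF-alpha. The 3 genotypes did not overlap, with the JAK2 mutant lowest and the TNFRSF1A mutant highest. The unstimulated differences were -0.94 and 0.66, and -0.85 and 0.57 against the other WT array. The first of each pair is uncertain in size, since the mutant's reading is below its array's background limit of 5.86. The 2 other TRIM2 probe sets lay below the level and gave -0.68 and -0.47 for the JAK2 mutant and 0.69 and 0.64 for the TNFRSF1A mutant.

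TRIM66, a member of the co-regulator group with a role in chromatin silencing, read 5.68 and 5.76 in the WT replicates, 5.95 in WT cells given IFN-gamma and 6.02 in WT cells given TNF-alpha. It read 6.32 and 6.25 in the JAK2 mutant and 6.21 and 6.40 in the TNFRSF1A mutant. Both mutants lay above all 4 WT arrays. The differences were 0.65 and 0.45, from WT values in the background range, so they are uncertain in size.

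Other members differed less in the JAK2 mutant. TRIM52 had 0.42, TRIM6 0.33, TRIM28 0.29, TRIM7 0.28, TRIM65 0.26, TRIM45 0.22 and TRIM14 0.17. TRIM63 had -0.46, TRIM4 -0.39 and TRIM5 -0.39. Of the 8 interferon-inducible genes 6 were below 0, with a median of -0.16, against 0.03 over all genes. TRIM22 and TRIM25 had -0.25 each and TRIM21 -0.22. Against WT replicate 2, TRIM22 had -0.55 and TRIM5 -0.54, while TRIM14 had 0.63 and TRIM25 0.34, so this list had no common direction against that array. Over all members, 0 passed 2-fold against WT replicate 2 (2.9% of all genes were raised and 3.65% lowered). At 1.5-fold 4 stood higher (TRIM14, TRIM28, TRIM6 and TRIM8, or 10.5% against 12% of all genes) and 1 stood lower (TRIM2, against 8.82%). The actin 3'/5' ratio was 5.74 in the JAK2 mutant and 4.41 in WT replicate 1, and its part in these values was not tested.

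In unstimulated TNFRSF1A mutant cells 0 members passed 2-fold against WT replicate 2, where 0.373% of all genes were raised and 0.607% lowered. At 1.5-fold, 1 member was higher, TRIM2 (2.63% against 2.3% of all genes), and 0 were lower (1.54% of all genes). TRIM44 had 0.48, TRIM66 0.45, TRIM8 0.44, TRIM71 0.40, TRIM28 0.38, TRIM27 0.26 and TRIM24 0.25. TRIM52 and TRIM63 had -0.40 each, TRIM13 -0.39 and TRIM45 -0.24. The other TRIM13 probe sets gave 0.30, 0.21, 0.34 and -0.32, so its direction depends on the probe set. Against WT replicate 1, 0 members passed 2-fold (0.841% of all genes were raised and 0.859% lowered). At 1.5-fold 0 stood higher (4.22%) and 1 stood lower, TRIM6 (3.81%). TRIM8 then had -0.30, TRIM44 0.18, TRIM52 0.19 and TRIM13 -0.01. The 8 interferon-inducible genes lay between 0.01 and 0.16 against WT replicate 2, but against WT replicate 1 TRIM25 had -0.48, TRIM14 -0.46 and TRIM22 0.39. The actin ratio was 4.51 here against 3.27 in WT replicate 2, as given above.

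The probe sets of TRIM72 and TRIM9 that reached the limit were not those that stood for the genes, and they gave the only clone differences past 2-fold among the single-gene TRIM probe sets. This probe set of TRIM72, a gene known from muscle membrane repair, read 6.08 and 5.88 in the WT replicates, 5.95 in WT cells given IFN-gamma and 5.94 in WT cells after TNF-alpha. It read 4.57 and 4.48 in the JAK2 mutant and 4.60 and 4.67 in the TNFRSF1A mutant, so both mutants lay below all 4 WT arrays. The differences were -1.52 and -1.28, from WT values at the edge of the background range to mutant values inside it, and the other TRIM72 probe set gave -0.13 and -0.16. For TRIM9 the probe set gave -1.42 in the JAK2 mutant and -0.11 in the TNFRSF1A mutant, again near or in the background range, and the 2 other probe sets gave -0.60 and -0.22 in the JAK2 mutant. These sizes are uncertain, and both probe sets were singled out after their values were seen.

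**Figure D5:**
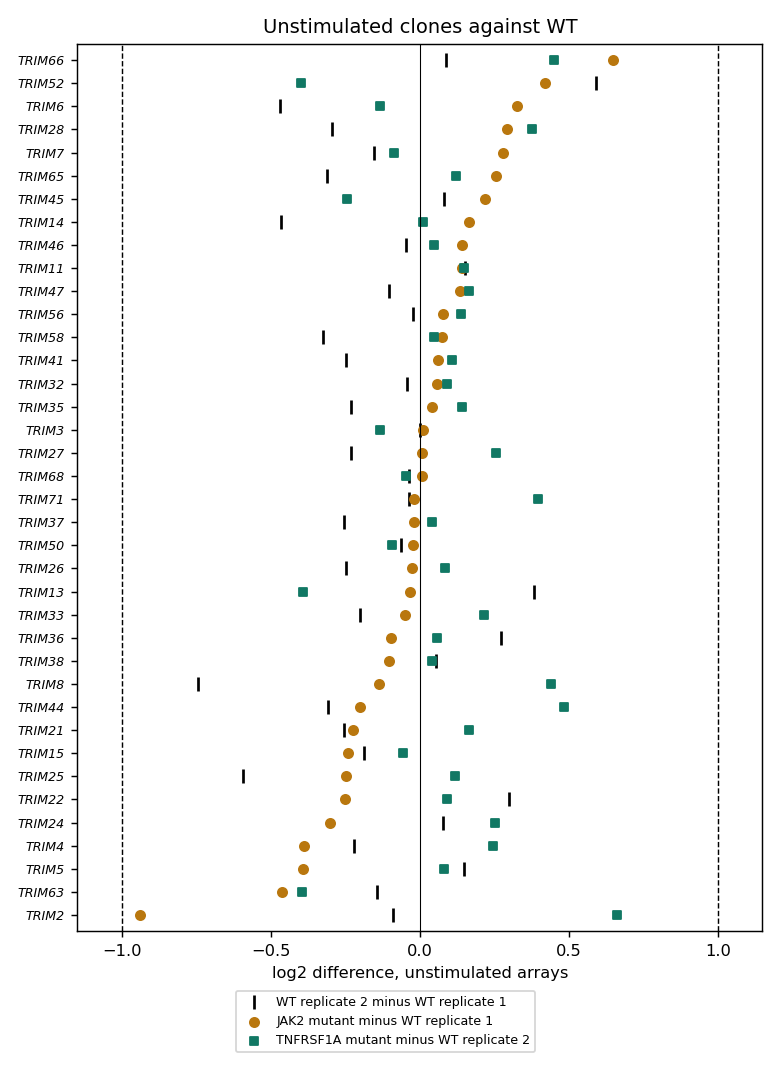
Log2 differences of the unstimulated JAK2 mutant (circles, against WT replicate 1), the unstimulated TNFRSF1A mutant (squares, against WT replicate 2) and WT replicate 2 against WT replicate 1 (vertical ticks), 1 row per TRIM gene, dashed lines at 2-fold. TRIM2 lies farthest apart in the mutants, at -0.94 and 0.66, with a difference of -0.09 in the WT pair.

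The WT arrays of both experiments, the only repeated condition, were compared for error, which here includes any shift between the experiments. None of the 38 members passed 2-fold between the WT arrays, against 0.954% of all genes higher and 1.03% lower in replicate 2. At 1.5-fold TRIM52 was higher, by 0.59 (4.49% of all genes), and TRIM8 and TRIM25 were lower, by values of -0.74 and -0.59 (6.69% of all genes). The sizes lie close to the IFN-gamma value of TRIM21, 0.59, and that of TRIM8 exceeds the IFN-gamma value of TRIM38, 0.65. The actin ratio was 4.41 in replicate 1 and 3.27 in replicate 2. TRIM52 read 8.37, 8.37, 8.79 and 8.78 in WT replicate 1, WT with IFN-gamma and the JAK2 mutant without and with IFN-gamma, and 8.97, 8.82, 8.57 and 8.65 in WT replicate 2, WT with TNF-alpha and the TNFRSF1A mutant without and with TNF-alpha.

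For 10 members (26.3%, against 26.5% of all genes) the 3 arrays of the IFN-gamma experiment other than WT with IFN-gamma all lay above the 4 of the TNF-alpha experiment, TRIM14, TRIM25 and TRIM8 among them. For 6 members (15.8%, against 20.1%) they all lay below, including TRIM22, TRIM5 and TRIM38. The members' shares were thus near those of all genes. Over all 8 arrays 34 of the 38 members kept within a range of 1, and the exceptions were TRIM2 (1.65), TRIM14 (1.29), TRIM6 (1.20) and TRIM22 (1.09). TRIM33, a SMAD4-linked co-regulator, read 10.47 to 10.77 over the 8 arrays, TRIM27 9.17 to 9.53 and TRIM13 9.43 to 9.95.

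The genes that work with TRIM proteins were followed from lists. Of 4 TRIM proteins under other symbols, PML (TRIM19), which organises nuclear bodies, had 0.47 with IFN-gamma in WT, 0.90 against WT replicate 2 and 0.01 in the JAK2 mutant. MID2 had -0.12, and MID1 and MEFV lay in the background range on all arrays. Of 7 E2 enzyme genes measured, 1 rose 2-fold with IFN-gamma in WT (0.607% of all genes did), UBE2L6, the E2 enzyme of ISG15, by 1.10 (0.96 against WT replicate 2), with 0.22 in the JAK2 mutant. UBE2N, whose product builds the K63-linked chains made by several TRIM ligases, had 0.09, and UBE2D4, UBE2E1, UBE2K, UBE2V1 and UBE2V2 ranged from -0.20 to 0.04.

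Of 11 antiviral signalling partners 4 rose 2-fold with IFN-gamma in WT, against 0.607% of all genes. IRF1 rose by 2.87 (0.59 in the JAK2 mutant) and SOCS1 by 1.88 (0.36 against WT replicate 2), the RNA sensor genes IFIH1 by 1.08 (0.83 against WT replicate 2) and RIGI, which TRIM25 modifies, by 1.05. ISG15 had 0.67 and the RNA-binding antiviral gene ZC3HAV1, whose product works with TRIM25, 0.53. MAVS, which TRIM14 binds, had -0.06, STING1 -0.07, IRF3 0.02, CGAS 0.06 and TBK1 0.27. The list's median was 0.53. With TNF-alpha 0 of the 11 passed 2-fold against WT replicate 2 (0.312% of all genes were raised), and IFIH1 had the highest value, 0.90. Against WT replicate 1, IFIH1 (9.85 against 8.70) and SOCS1 (8.93 against 7.84) passed 2-fold, beside 1.4% of all genes raised. SOCS1 had -0.44 against WT replicate 2, so its sign turned with the control array. IFIH1 stood higher against both WT arrays, though past 2-fold only against WT replicate 1, and had 0.01 in the TNFRSF1A mutant.

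Over the 8 arrays the genes whose pattern was most like that of TRIM21 were DTX3L, PARP14, HYCC1, RIGI and USP42, with Pearson correlations of 0.976 to 0.988. For TRIM22 they were HLA-E, ZHX1, JAG1, XRN1 and P2RX7 (0.966 to 0.989), and for TRIM25 SAMD9, NABP1, HAUS6, USP33 and ZNF672 (0.963 to 0.988). These were the highest among all genes compared, the arrays share experiments and clones, and the values are a description only.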

How the data were processed

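Each of the 8 samples of KBM7 RNA has 1 single-colour Affymetrix array, per the labels. As deposited, a value is a probe set's RMA intensity on a linear scale; the submitters' processing notes name RMA and Affymetrix Expression Console 1.1. Array medians were 63.9 to 66.9. Log2 values had been assumed, so log2 was taken first, with no pseudocount. RMA equalises the arrays' distributions and compresses differences of dim probe sets.

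Of 49395 probe sets, 44994 had 1 gene in the platform annotation, 1832 several and 2569 none listed. All 38 member symbols matched RefSeq through gene identifiers. Each gene was read from the probe set of that gene alone that was brightest on average; 7 members rest on one marked _x_at. Members and lists were chosen with earlier results of these data known. Named genes were TRIM21, TRIM22 and TRIM25, the interferon list, the 8 largest rises and 4 largest falls among members in each WT response and clone, the 3 and 3 of each mutant response, the 6 brightest members and those nearest the level; the chromosome 11 genes, further single values and the ranking of WT with IFN-gamma among the 8 arrays were added after values were seen. Alternatives were other thresholds and levels, loess (span 0.3) and quantile normalization, other probe set rules, the other WT control and a limma 3.58.1 fit of the 7 conditions with 1 residual degree of freedom and Benjamini-Hochberg adjustment, tested on simulated data.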

Additional observations from a re-analysis of the deposited data

Results flagged for a closer look

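TRIM2 moved in opposite directions in the unstimulated clones, with -0.94 in the JAK2 mutant against WT replicate 1 and 0.66 in the TNFRSF1A mutant against WT replicate 2, a gap of -1.60. Its JAK2 mutant reading of 5.45 lies in the background range, so the sizes of the first value and of the gap are uncertain. TRIM52 had 0.42 and -0.40, a gap of 0.82, while the WT arrays differed by 0.59 for this gene. With the other WT array as control, TRIM52 had -0.17 in the JAK2 mutant and 0.19 in the TNFRSF1A mutant, so both signs turned, whereas TRIM2 kept its signs with -0.85 and 0.57. Neither gap was tested, since each mutant has 1 unstimulated array; the limma fit, with the spread pooled, gave TRIM2 an unadjusted p of 0.0096 (adjusted 0.47) in the JAK2 mutant and 0.038 (adjusted 1.00) in the TNFRSF1A mutant against WT.

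Among the 15 probe sets assigned to a TRIM gene together with another gene, which were outside the comparisons, the brighter of the 2 for TRIM34 and TRIM6-TRIM34 stood apart in WT with IFN-gamma. Its log2 value there was 7.90, which is 0.31 above the highest of the other 7 arrays. It had 0.43 against WT replicate 1 and 0.09 in the JAK2 mutant. The other, dimmer one had 0.11 against WT replicate 1 and 0.00 against WT replicate 2. A TRIM34 probe set of its own lay below the level on all arrays.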

How the results depend on the processing

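The count of 0 members at 2-fold held in all 7 comparisons with no level filter (59 genes) and after loess or further quantile normalization. It also held with the mean of all probe sets, without probe sets marked _x_at (37 genes) and with the mean of both WT arrays as control. A 3-fold threshold and a log2 level of 8 (25 genes) could only give 0 again, since they add no member and change no difference. Leaving out WT replicate 1 gave 1 raised member with IFN-gamma, TRIM14. At 1.5-fold 5 members were raised with IFN-gamma in WT (13.2% against 1.38% of all genes). Against both WT arrays, added after the data were seen, 4 were (10.5% against 1.03%). In the unstimulated JAK2 mutant 1 was raised (2.63% against 1.86%) and 1 lowered (2.63% against 4.29%). In the unstimulated TNFRSF1A mutant 1 was raised (2.63% against 2.3%). Between the WT arrays 1 was higher (2.63% against 4.49%) and 2 were lower (5.26% against 6.69%). Without probe sets marked _x_at, TRIM14 had 0.26 and TRIM38 0.54 with IFN-gamma in WT, so both fell short of 1.5-fold. The median with TNF-alpha in WT was -0.14 without WT replicate 2. As the mean of its probe sets TRIM14 had 0.22 with IFN-gamma and TRIM63 -0.09 with TNF-alpha. TRIM56 stayed between 0.93 and 0.95 over the settings. It is read by 1 probe set, not marked _x_at, so the other probe set rules could not change its value. In the limma fit, 0 members passed an adjusted p of 0.05 in any comparison; at an unadjusted p under 0.05, 5 were raised with IFN-gamma in WT (TRIM14, TRIM21, TRIM22, TRIM38 and TRIM56) against 1.19% of all genes, and the fit called 1 gene in all there. In the clone baselines, against both WT arrays, the fit gave TRIM66 0.60 and TRIM2 -0.89 in the JAK2 mutant. It gave TRIM2 0.62 in the TNFRSF1A mutant. The fit assumes that single arrays vary as the WT pair does. No paired analysis was possible because no 2 conditions share 2 replicate numbers. Signal near background limits TRIM2 and TRIM66.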
